A study of Danio rerio with 2 samples.

Results

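The keratins described here are the 9 features of the gene tables whose name starts with krt and a digit, or is cyt1, cyt1l or si:dkeyp-113d7.4 (now krt1-19e), out of 27098 features in all. They were krt4, krt5, krt8, krt15, krt18, krt1-19d, krt1-19e, cyt1 and cyt1l, and all 9 had at least 10 reads in at least 1 of the libraries. RNA sequencing had been run on 1 library of whole zebrafish embryos and 1 library of adult zebrafish liver. Both groups of fish had been treated for 48 h with 9 compounds toxic to the human liver (valproic acid, amiodarone, thioacetamide, acetaminophen, tetracycline, cyclosporine A, chlorpromazine, paraquat and 17a-ethynylestradiol). The RNA of all samples of a source, each embryo sample being 15 embryos, was mixed in equal amounts into 1 pool. Strain, sex and embryo age were not given in the sources used here, and unexposed fish were not analysed here, and the values below cannot be tied to 1 compound or separate exposure from source.

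Keratins build the intermediate filaments of epithelial cells. A type I chain and a type II chain pair into 1 filament unit, so a cell that makes keratin filaments needs genes of both types. In mammals, simple epithelia such as hepatocytes and bile ducts rest on the type II keratin 8 and the type I keratin 18, while stratified skin uses other chains. In zebrafish, krt4 and cyt1 are known from the surface layers of the embryonic skin and krt1-19e from its basal layer.

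The total count assigned to genes was 11408727 reads in the embryo pool and 13020149 reads in the liver pool. Levels are given as counts scaled to these totals (CPM), and as RPKM, the authors' value per exon length, wherever genes are compared with each other. The liver label fitted its markers. Of 13 hepatocyte genes listed, 12 could be matched, and all 12 were called toward the liver pool (3.35% of all features). Led by tfa (an iron carrier) and apoa2 (an apolipoprotein), they summed to 100869 CPM there and to 4124 CPM in the embryo pool. With 1 library per source there was no replicate check and no test between the sources. The 95% intervals in brackets cover counting error only. A call toward a pool means that the whole interval of the CPM ratio lay at or past 4-fold, with 10 or more reads there.

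The keratin RNA of the 2 pools was made up of different genes. Among the 9 genes, krt4, krt5, cyt1, krt1-19e and cyt1l led in embryos by RPKM, though krt8 passed cyt1l with unique exon reads alone. In liver, krt8 and krt18 made up nearly all reads of these 9 genes. With the further keratins given below, all 21 had 29991 liver reads, of which krt8 and krt18 had 24586. The 9 genes together took 182117 reads of the embryo pool, 1.60% of the library, and 25554 reads of the liver pool, 0.196%, which is 8.13-fold higher (8.03 to 8.24) in the embryo pool. Under trimmed-mean (TMM) scaling, which shifted every log2 ratio toward the liver pool by 1.35, this was 3.19-fold (3.14 to 3.23) and no longer a call. Without krt8 and krt18 the other 7 genes had 168792 embryo reads and 968 liver reads, a 199-fold difference (187 to 212). In bulk samples, fewer cells of a type and less RNA per cell cannot be told apart, and the embryo pool held whole animals with skin.

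Of the 9 keratins, 7 were called higher in the embryo pool, where 30.9% of all 21750 measured features were called, and 0 were called higher in the liver pool, where 3.35% of the features were. Liver over embryo, the median log2 ratio was -9.28 for the 9 keratins and -1.60 for all measured features, with counts under 3 taken as 3. For the 12 further keratins given below it was -3.46. The -9.28 is the value of krt1-19d, whose 2 liver reads were taken as 3. The count toward the embryo pool was also 7 with TMM factors (15.8% of features called), with median-of-ratios size factors (15.5%), with reads of 1 position (30.3%) and with exon reads (36.4%). It was 7 too with library totals without vitellogenins (27.9%), with no count minimum (26.7%), with a minimum of 50 reads (33.9%) and with a 2-fold call (52.4%). Toward the liver pool the count stayed at 0 with reads of 1 position (3.45% of features called), exon reads (3.38%), no vitellogenins (3.84%), no minimum (2.89%) and a minimum of 50 reads (3.84%). It was 1 with TMM factors (8.06%), size factors (8.19%) and a 2-fold call (6.46%). The 2 keratins outside this count were krt8 and krt18.

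**Figure D1:**
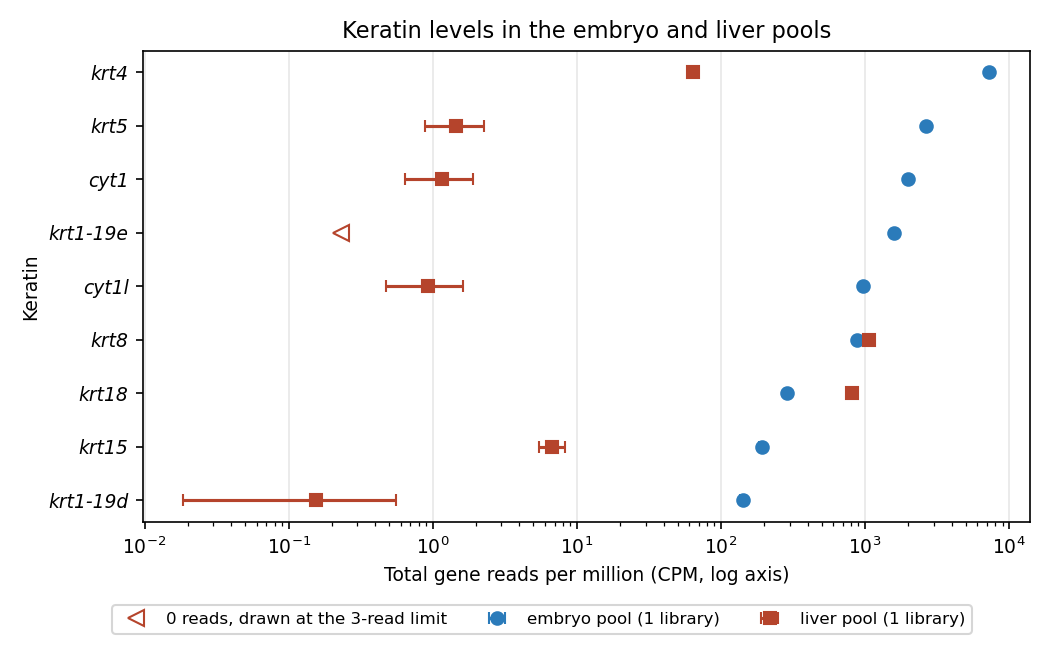
Level of each keratin in CPM (log axis) in the embryo pool (circles) and the liver pool (squares), with 95% counting intervals and 1 library per pool; an open triangle marks a count of 0, drawn at the limit of 3 reads. The embryo values run from 143 to 7254 CPM, and in the liver pool only krt8 and krt18 lie above 100 CPM.

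The type II keratins krt4 and krt5 were called toward the embryo pool. For krt4, which lies on chromosome 6 (42856725 to 42861247 in the coordinates of the deposited files, which are of a genome build not given in the sources used here), there were 82763 reads (7254 CPM) in the embryo pool and 832 reads (63.9 CPM) in the liver pool. It was the gene at rank 5 of all features by reads in the embryo pool and at rank 1377 in the liver pool. The ratio was 114-fold (106 to 122) toward the embryo pool, or 44.5-fold (41.5 to 47.7) with TMM factors, and every read of krt4 in both pools had 1 position. The second, krt5 (chromosome 23, 8817190 to 8821430), had 30453 reads (2669 CPM) in the embryo pool and 19 reads (1.46 CPM) in the liver pool, an 1829-fold difference (1171 to 3039). Thus krt4 was readily counted in the liver pool and krt5 had few reads there. Per exon length krt4 was 2.62 times krt5 (2.59 to 2.66) in the embryo pool and 42.2 times krt5 (26.9 to 70.5) in the liver pool, intervals that do not overlap. The liver reads of krt4 therefore did not keep the proportion to krt5 seen in the embryo pool, a comparison that rests on 19 liver reads of krt5. Against cyt1 the ratio also rose, from 2.05 (2.02 to 2.08) in the embryo pool to 42.3 (23.5 to 85.0) in the liver pool. Against krt15, most of whose reads had more than 1 position, it fell from 23.4 (22.4 to 24.4) to 5.97 (4.78 to 7.55). The embryo pool does not give these proportions for adult skin, and the source of the liver reads of krt4 was not tested.

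The type I keratins krt1-19d, krt1-19e, cyt1 and cyt1l of chromosome 19 were nearly absent from the liver pool. This did not hold for krt91 and krt92 of the same chromosome, given below, which had 677 and 1432 liver reads. The basal skin keratin krt1-19e (4964517 to 4971084) had 18101 reads (1587 CPM) in the embryo pool and 0 reads in the liver pool. There the exact 95% interval of a count of 0 reaches 0.283 CPM, and the detection limit taken here, 3 reads, is 0.230 CPM. Set against that limit of 3 reads, its embryo level was at least 6886-fold higher. This takes 3 reads for 0 and is above the lower end of the exact 95% interval used for the other ratios, 5599-fold. Its neighbour krt1-19d (4948459 to 4957966), a type I keratin 6.55 kb away, had 1631 reads (143 CPM) in the embryo pool and 2 reads (0.154 CPM) in the liver pool, a ratio of 931 (257 to 7691). Both were thus at or under the detection limit in the liver pool, although the embryo level of krt1-19e was far above that of krt1-19d, with 1004 RPKM against 102 RPKM.

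The surface-layer keratin cyt1 (4987717 to 4989750) had 22580 reads (1979 CPM) in the embryo pool and 15 reads (1.15 CPM) in the liver pool. The adjacent cyt1l (4981574 to 4983584), its near copy by name, had 11078 reads (971 CPM) in the embryo pool and 12 reads (0.922 CPM) in the liver pool. Their ratios were 1718-fold (1041 to 3070) and 1054-fold (603 to 2040) toward the embryo pool. Only 38.1% (37.4 to 38.7) of the embryo reads of cyt1 and 37.4% (36.5 to 38.3) of those of cyt1l had 1 position, so the level of each is uncertain. Which other genes share these reads was not tested. With reads of 1 position alone, cyt1 was 924-fold (502 to 1927) and cyt1l 1112-fold (434 to 4083) higher. Summed over both genes, 33658 embryo reads stood against 27 liver reads, 1423-fold (978 to 2159). Of the liver reads, 4 of 15 for cyt1 and 2 of 12 for cyt1l crossed an intron-exon boundary, against 9 of 22580 and 6 of 11078 in the embryo pool.

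The remaining type I keratin called toward the embryo pool, krt15 (chromosome 11, 11767517 to 11770183), differed least among the 7. In mammals the gene of that name marks basal skin cells, and its site in zebrafish was not tested. It had 2186 reads (192 CPM) in the embryo pool and 88 reads (6.76 CPM) in the liver pool, a ratio of 28.3 (22.9 to 35.5). Reads of 1 position were 20.4% (18.7 to 22.1) of its embryo reads, the lowest share of the 9 keratins. Among the 1954 features with at least 1000 embryo reads the median share was 99.1%, and 98 features had a lower share than krt15.

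The keratins krt8 and krt18, named for chains of simple epithelia in mammals, did not follow the other 7 keratins. The type II gene krt8 (chromosome 23, 8894054 to 8898670) had 10022 reads (878 CPM) in the embryo pool and 13965 reads (1073 CPM) in the liver pool, at ranks 111 and 115 of all features. Its liver to embryo ratio of 1.22 (1.19 to 1.25) rose to 3.12 (3.04 to 3.20) under TMM scaling and was called under neither. The type I gene krt18 (chromosome 23, 8992284 to 8996182, now krt18a.1) had 3303 reads (289.5 CPM) in the embryo pool and 10621 reads (816 CPM) in the liver pool, a ratio of 2.82 (2.71 to 2.93). With TMM factors it was called toward the liver pool, at 7.19-fold (6.92 to 7.48), as 8.06% of all features were, and with size factors at 7.34-fold (7.06 to 7.64), as 8.19% were. Nearly all reads of both genes had 1 position, 99.9% or more in each pool, so that these values do not rest on shared reads.

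**Figure D2:**
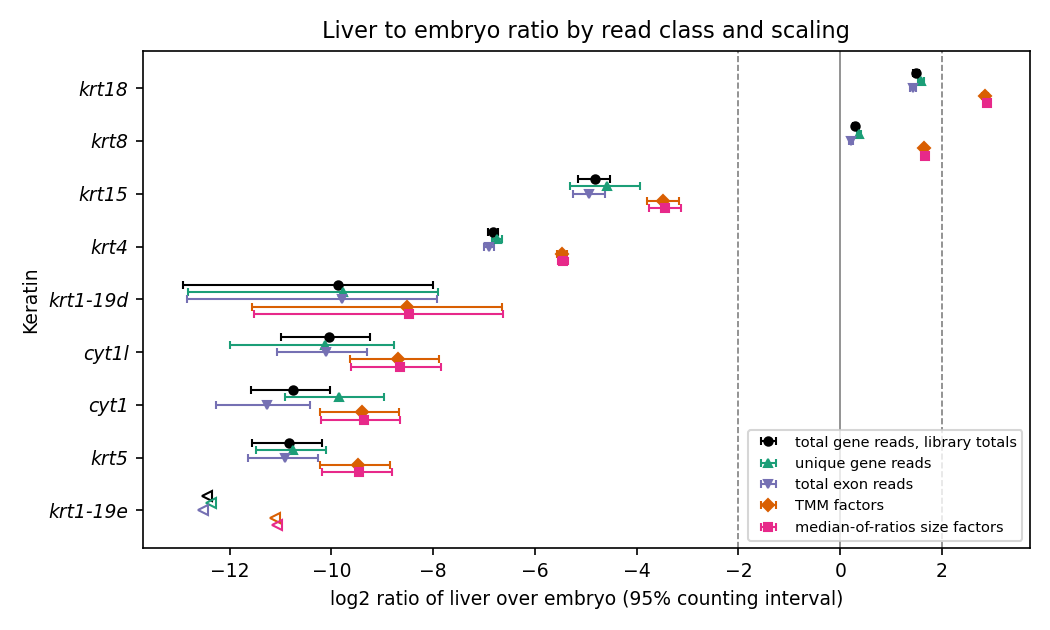
The log2 ratio of liver over embryo for each keratin with 95% counting intervals, by read class and scaling; dashed lines mark 4-fold, and open triangles mark the upper end of the interval of krt1-19e, which had 0 liver reads. The 7 keratins other than krt8 and krt18 lie left of the 4-fold line in every setting, and krt18 passes the line on the right with TMM factors and size factors only.

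Per exon length, krt8 and krt18 were nearly balanced in the liver pool and unequal in the embryo pool. In the liver pool krt8 had 494 RPKM and krt18 had 467 RPKM, a ratio of 1.06 (1.03 to 1.09). In the embryo pool the values were 405 RPKM and 165 RPKM, a ratio of 2.45 (2.35 to 2.55). The balance of krt8 to krt18 was 2.31 times as high (2.21 to 2.43) in the embryo pool, a comparison within libraries that no scaling changes. Both pools had other chains of both types besides krt8 and krt18, and whether these bear on the balance was not tested. The balance leaves out krt18a.2, given below, which had 39.6 RPKM in the liver pool and 6.50 RPKM in the embryo pool. Summed over the 9 genes, type II keratins came to 4476 RPKM and type I keratins to 3526 RPKM in the embryo pool, and to 520.3 RPKM and 472 RPKM in the liver pool. These sums leave out the 12 further keratins given below. Those had a summed 2113 RPKM in the embryo pool and 215 RPKM in the liver pool. Which type led over all keratins therefore cannot be read from these sums.

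The order of the levels of the 9 genes within each pool was read from RPKM. In the embryo pool krt4 led with 2947 RPKM, followed by cyt1 with 1439 RPKM, krt5 with 1124 RPKM, krt1-19e with 1004 RPKM and cyt1l with 690.5 RPKM. Below them came krt8, krt18, krt15 with 126 RPKM and krt1-19d with 102 RPKM, and each neighbour in this order differed beyond counting error. The order rests on reads with several positions. With unique exon reads alone, scaled in the same way, it was krt4, krt5, krt1-19e, cyt1, krt8, cyt1l, krt18, krt1-19d and krt15, with cyt1 at 548 RPKM, cyt1l at 258 RPKM and krt15 at 25.7 RPKM. Outside the 9 genes, krt92 (77.8 RPKM), krt94 (48.9), krt18a.2 (39.6) and krt91 (34.5) lay above krt4 in the liver pool. Among the 9, krt8 and krt18 were followed there at a distance by krt4 with 26.0 RPKM and krt15 with 4.35 RPKM. The next 3 by RPKM, cyt1l, krt5 and cyt1, had between 0.614 and 0.656 RPKM and could not be ordered at this depth, nor could krt1-19d and krt1-19e below them. As shares of the summed RPKM of the 9 genes, krt4 had 36.8% and krt8 with krt18 had 5.06% and 2.07% in the embryo pool. In the liver pool krt8 and krt18 had 49.7% and 47.0%, and krt4 had 2.62%.

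**Figure D3:**
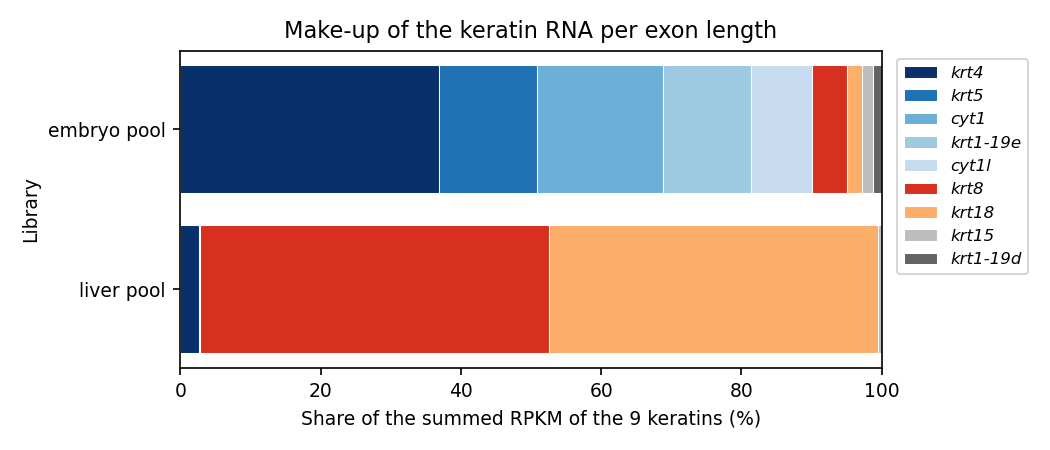
Share of each keratin in the summed RPKM of the 9 genes, as 1 stacked bar per pool of 1 library each. Blue shades (krt4, krt5, cyt1, krt1-19e and cyt1l) fill most of the embryo bar, and krt8 (red, 49.7%) and krt18 (orange, 47.0%) fill most of the liver bar.

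Reads over splice junctions were counted for each gene and gave a separate look at the same RNA. Of the exon reads, 16.4% (15.7 to 17.1) for krt8 and 19.5% (18.2 to 20.9) for krt18 crossed a junction in the embryo pool. In the liver pool these shares were 17.4% (16.8 to 18.1) and 18.4% (17.6 to 19.1), intervals that overlap for each gene. Such overlap does not show that the shares are equal. For krt4 the share was 17.2% (17.0 to 17.5) in the embryo pool and 12.9% (10.7 to 15.3) in the liver pool, intervals that do not overlap. Intron-exon reads were rare for 8 of the keratins in the embryo pool, between 0.00725% of the reads of krt4 and 0.182% of those of krt18. The exception was krt1-19d with 139 of 1631 reads, 8.52% (7.21 to 9.98). Among the 1954 features with at least 1000 embryo reads the median was 0.119%, the 95th percentile was 2.25%, and 7 features had a higher share than krt1-19d.

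A further 12 features carry a keratin symbol in the current RefSeq gene table (assembly GRCz12tu) and another name in the files, so the naming rule misses them. They added 35435 embryo reads and 4437 liver reads to the family, and with them the family difference was 8.28-fold (8.18 to 8.38) toward the embryo pool. By position in the files, 7 keratin features lay within 57.4 kb of chromosome 19, in the order krt1-19d, krt1-19e, krt92, cyt1l, cyt1, krt17 and krt91. Another 4 lay on chromosome 23, where krt5, krt8, krt18 and krt18a.2 spanned 183 kb. The chromosome 6 site of the files held krt4 alone.

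Of these 12 features 8 were called higher in the embryo pool (30.9% of all features), 1 in the liver pool (3.35%) and 3 in neither. Under TMM scaling 5 were called toward the embryo pool (15.8% of all features) and 1 toward the liver pool (8.06%). The embryo count was 7 with reads of 1 position (30.3%) and with exon reads (36.4%), and 6 with a minimum of 50 reads (33.9%). Of the 8, krt99 had 35 embryo reads, 0 of them with 1 position, and krt96 had 24 embryo reads and 0 exon reads. The one on the liver side was krt18a.2 (si:ch211-133j6.3 in the files), the feature next to krt18, with 156 reads in the embryo pool and 1094 reads in the liver pool, 6.14-fold higher (5.19 to 7.31). Its liver level of 39.6 RPKM was far below the 467 RPKM of krt18. In the chromosome 19 group, krt17 (si:dkeyp-113d7.7 in the files) had 6108 embryo reads and 0 liver reads, at least 2324-fold higher at the limit of 3 reads, with the lower end of the exact interval at 1889-fold. In the same group krt91 (zgc:92533 in the files) had 16688 embryo reads and 677 liver reads, 28.1-fold higher (26.0 to 30.4), so that a neighbour of genes with 0 liver reads was counted there. The third, krt92 (zgc:109868 in the files), had 6364 embryo reads and 1432 liver reads, a 5.07-fold difference (4.79 to 5.37) that fell to 1.99-fold (1.88 to 2.11) and lost its call under TMM scaling.

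On chromosome 22, krt97 (zgc:92061 in the files) had 4844 embryo reads and 270 liver reads, 20.5-fold higher (18.1 to 23.2) in the embryo pool. On chromosome 11, krt94 (zgc:153629 in the files) was close to even, with 1017 embryo reads and 959 liver reads. Its liver to embryo ratio was 0.826 (0.756 to 0.903) with library totals and 2.11 (1.93 to 2.31) under TMM scaling, a change of direction. The remaining 6, krt1-c5, krt93, krt95, krt96, krt98 and krt99, had between 10 and 100 embryo reads and between 0 and 4 liver reads. Of these, krt95 and krt98, with 11 and 10 embryo reads, were called in neither pool.

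**Figure D4:**
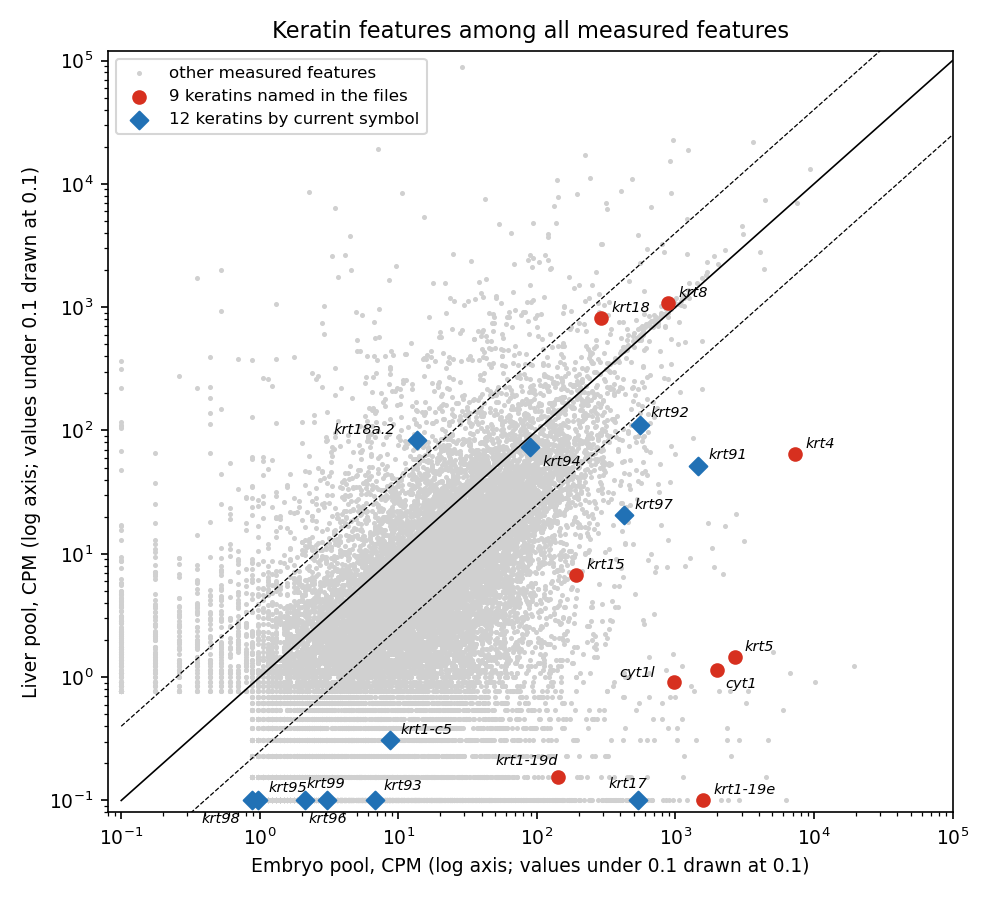
Embryo CPM against liver CPM (log axes, values under 0.1 drawn at 0.1) for the 9 keratins (red circles), the 12 keratins found by current symbol (blue diamonds) and all other measured features (grey), 1 library per axis; the solid line marks equal CPM and the dashed lines 4-fold. Most keratins lie below the lower dashed line, krt8, krt18 and krt94 lie between the lines, and krt18a.2 lies above them.

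Genes of the surrounding skin and of keratin attachment were set beside the keratins. Of 17 measured epidermis markers that are not keratins, 16 were called toward the embryo pool (30.9% of all features) and 0 toward the liver pool (3.35%). Under TMM scaling these were 13 (15.8%) and 0 (8.06%), and the median log2 ratio with library totals was -7.38. Their summed level was 2221 CPM in embryos and 206 CPM in liver, and 11 of the 17 had under 10 liver reads. The fin-fold actinodin and2 (zgc:175106 in the files) had 4514 embryo reads and 0 liver reads, as cldne, a skin claudin, and lye also had 0 liver reads. Other called markers were counted in liver, such as icn with 2368 embryo reads and 408 liver reads, which lost its call under TMM scaling. The one marker not called was cdh1, the epithelial cadherin found in many epithelia, with 1103 embryo reads and 1878 liver reads. It alone gave 144 CPM of the 206 CPM that the markers summed to in liver. The part of skin RNA in the liver reads of krt4 was not tested.

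The transcription factors of the skin were also mostly on the embryo side. Of 13 measured epidermal regulators 12 were called toward the embryo pool (30.9% of all features) and 0 toward the liver pool (3.35%), or 8 (15.8%) and 0 (8.06%) with TMM factors. The median log2 ratio with library totals was -4.65. The AP-2 factor tfap2a had 1282 embryo reads and 0 liver reads, and the zinc-finger factor gata3 had 1011 embryo reads and 5 liver reads.

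The measured genes that anchor keratin filaments did not share the median of the 9 keratins. Of 25 such genes listed, 15 could be matched to a feature, and evpla, evplb and col17a1b were among those not matched. Of 15 measured anchoring genes 6 were called higher in the embryo pool, 0 in the liver pool and 9 in neither, where 30.9% and 3.35% of all features were called toward these pools. The median log2 ratio of -1.71 was near the -1.60 of all measured features. Under TMM scaling 3 were called toward the embryo pool (15.8% of all features) and 1, the desmosomal plakophilin pkp2, toward the liver pool (8.06%). The 3 that kept the embryo call are known from stratified skin. These were the hemidesmosome collagen col17a1a (si:ch211-281g13.3 in the files), with 2820 embryo reads and 0 liver reads, the hemidesmosome integrin itgb4, with 581 and 2 reads, and the plakin ppl, with 3826 and 38 reads. The desmosome genes dspa, with 1615 embryo reads and 565 liver reads, and perp, with 2621 and 1123 reads, were within 4-fold.

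Other intermediate filament genes had a lower median than the anchoring genes. Of 18 measured, 16 were called toward the embryo pool (30.9% of all features) and 0 toward the liver pool (3.35%), or 12 (15.8%) and 0 (8.06%) with TMM factors. The median log2 ratio with library totals was -6.81. The glial filament gene gfap had 3621 embryo reads and 3 liver reads, the lens filament gene bfsp2 (zgc:103750 in the files) had 1560 and 0 reads, and the muscle filament gene desma (desm in the files) had 1494 and 12 reads. The nuclear lamin lmna was the closest to even, with 226 embryo reads and 199 liver reads. In the liver pool these 18 genes summed to 49.6 CPM, against 1888 CPM for krt8 and krt18 together.

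Markers of other cells that a dissected liver can hold are given beside the liver values of krt8 and krt18. The biliary duct list, without its keratins, had 8 measured members, of which 5 were called toward the embryo pool (30.9% of all features) and 0 toward the liver pool (3.35%). With TMM factors these were 3 (15.8%) and 1 (8.06%), the latter being hnf1ba. The 9 matched members summed to 745 CPM in embryos and 111 CPM in liver. Of these sums vil1, which is also in the intestine list, gave 402 CPM and 25.7 CPM. None of the 9 members was at 0 in the liver pool, though onecut1 had 3 liver reads and cftr had 6. Only hnf1ba, a duct and kidney transcription factor, had the higher level in the liver pool, with 201 embryo reads and 664 liver reads. The others had the higher level in the embryo pool, such as anxa4 with 1870 and 105 reads and alcama with 894 and 110 reads. The intestine list summed to 2441 CPM in embryos and 1217 CPM in liver over 10 members, 1 of them krt92, with fabp6 at 0 in the liver pool. Most of this liver sum came from apoa4, with 782 CPM, and chia.1, with 199 CPM. Of the 10 members 7 were called toward the embryo pool (30.9% of all features) and 0 toward the liver pool (3.35%). With TMM factors these were 2 (15.8%) and 1 (8.06%), the latter being chia.1. The exocrine pancreas list summed to 5879 CPM and 1831 CPM over 9 members, none at 0. The part of these cells in the liver reads of the keratins was not tested.

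**Figure D5:**
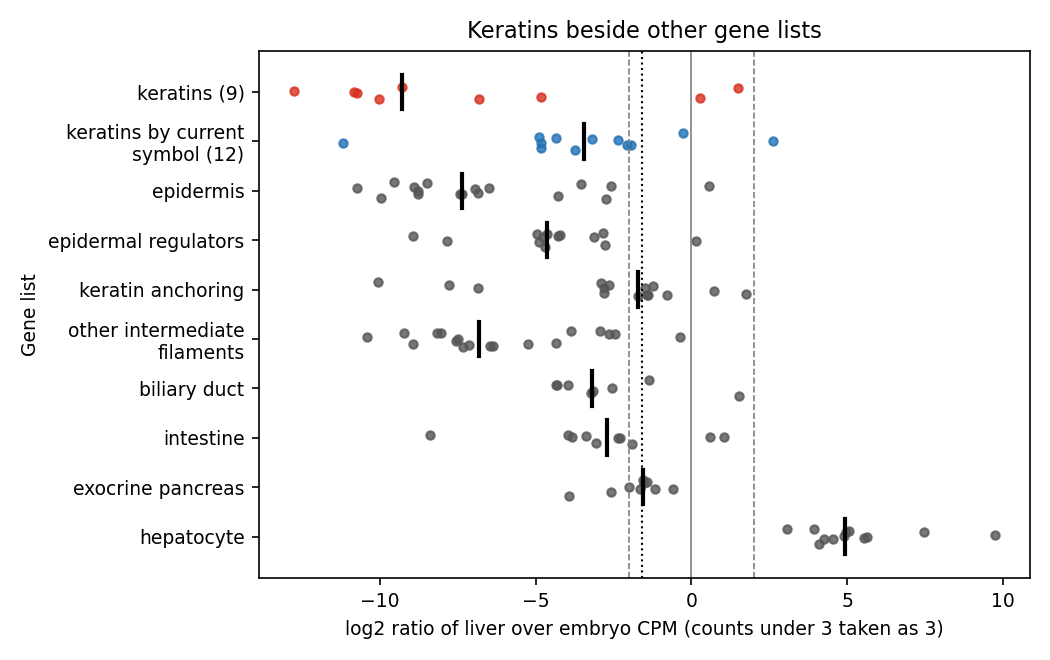
The log2 ratio of liver over embryo CPM (counts under 3 taken as 3) of the measured members of each gene list, 1 point per gene and 1 library per pool; black bars are list medians, the dotted line is the median of all measured features (-1.60), and dashed lines mark 4-fold. The 9 keratins (median -9.28) and the epidermis markers (-7.38) lie far left, and the 12 keratins by current symbol have a median of -3.46. The anchoring genes (-1.71) lie around the dotted line, and the hepatocyte genes (4.92) lie right.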

How the data were processed

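The deposited files hold, per the file headers, whole-number read counts per gene region, exon, exon-exon junction and intron-exon boundary, each as unique reads (1 position) and total reads. RPKM and median coverage, a signal per gene, were also deposited by the authors, and median coverage was not used for a result. RPKM equalled total exon reads scaled by exon length and by the library total, to within 0.0878 reads. Aligner, annotation and genome build were not given in the sources used here. Groups came from the tissue label, with 1 library each.

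CPM ratios of total gene reads carry exact 95% intervals (Clopper-Pearson on the conditional binomial, scipy 1.17.1). Features with at least 10 reads in either pool were measured. Alternatives were unique reads, exon reads, edgeR 4.0.16 TMM factors, DESeq2 1.42.0 size factors, library totals without features named vtg, other count minimums and a 2-fold call. The order of levels was also read from unique exon reads, added after seeing the data. Keratins and lists were chosen with earlier results of these data known. Feature names were matched to current symbols through RefSeq GRCz12tu, by symbol, synonym or gene number, and ambiguous ones were left out. The lists are not independent, since ppl is in the epidermis and anchoring lists and tp63 in the epidermis and regulator lists. Likewise vil1 is in the biliary duct and intestine lists, and vim in the intermediate filament and mesenchyme lists. Named from the lists were some of the most abundant members, members outside the call, and some chosen after their values were seen. Not all of the 3 most abundant members of each list are named, and none of the exocrine pancreas list. No protein, promoter or transcript sequence was analysed here. Of the genes outside a call, 1 is not reported here.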

Additional observations from a re-analysis of the deposited data

How the results depend on the processing

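The summed keratin ratio of liver over embryo, 0.123 with library totals, kept its direction in every alternative run. It was 0.314 with TMM factors and 0.320 with size factors, where its interval no longer lay beyond 4-fold. This follows from the shift of 1.35 and 1.38 that these scalings apply to every log2 ratio. With unique reads, exon reads, library totals without vitellogenins, without krt4, and with the keratins found by current symbol (added after seeing the data) it stayed beyond 4-fold, between 0.117 and 0.218. The count of 7 keratins higher in the embryo pool was the same in all 8 alternatives. The count of keratins higher in the liver pool went from 0 to 1 with TMM factors, with size factors and with a 2-fold call (6.46% of features called), krt18 each time. Of 45 single-gene values under alternatives, 43 kept their side of the call and 2, both of krt18, passed it, and none turned direction. No paired analysis was possible because each source had 1 library. Depth limits the liver values of krt5, cyt1, cyt1l, krt1-19d and krt1-19e, which rest on 0 to 19 reads.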

Other observations

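The features whose levels in the 2 libraries lay closest to those of krt4, by distance in log2(CPM + 1) among features with at least 100 reads in either pool, were LOC100329900 as the nearest, krt91 (zgc:92533 in the files) at 2.33, nme2b.2 at 2.48, lztfl1 at 2.50 and the collagen gene col1a1a at 2.56. They had between 15204 and 35512 embryo reads and between 164 and 1135 liver reads, with col1a1a 247-fold higher (212 to 289.9) in embryos. With 2 libraries this is a description of levels only.

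Lists that bear less on keratins were measured as well. Of 8 measured red blood cell genes 3 were called toward the embryo pool (30.9% of all features) and 3 toward the liver pool (3.35%), or 2 (15.8%) and 4 (8.06%) with TMM factors, with the adult globin hbba1 (ba1 in the files) at 0 embryo reads and 1536 liver reads and the embryonic globin hbae3 at 2140 and 0 reads. Of 5 measured ovary and oocyte genes 2, zp3 and buc, were called toward the liver pool (3.35% of all features) and 0 toward the embryo pool (30.9%), and the list summed to 4.21 CPM in embryos and 11.3 CPM in liver. Of 8 endothelium and mesenchyme genes 4 were called toward the embryo pool (30.9% of all features) and 0 toward the liver pool (3.35%), and with TMM factors 4 (15.8%) and 1, kdrl (8.06%).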
